A study of Mus musculus with 6 samples.

Results

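The genes described here are 9 enzymes of deoxynucleotide and pyrimidine synthesis, chosen by name as the enzymes that make the building blocks of DNA: Rrm1, Rrm2, Rrm2b, Tyms, Tk1, Dut, Umps, Cad and Dhodh. They are 9 of the 55487 gene identifiers in the deposited count table, and all 9 passed the filter on low counts that left 19015 genes for testing. The libraries came from polyA RNA of primary cells of C57BL/6 mouse skin, labelled as endothelial cells (ECs). Each isolation drew on the skin of 4 to 6 mice aged 2 to 3 months, and the cells were enriched with magnetic beads against CD31, an endothelial surface protein. The 6 cultures spent 48 hours in medium with glucose at 5 mmol/L (3 cultures, called normal glucose) or at 20 mmol/L (the other 3, called high glucose). The labels name no genetic change in either group. The labels do not say whether the 3 libraries of a group came from separate isolations, while the study's legends count the replicates of this experiment as mice. P values measure the spread between these cultures, and how much of it is technical is not known.

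Cells build DNA from deoxynucleoside triphosphates (dNTPs). Ribonucleotide reductase strips an oxygen from ribonucleotides to make deoxyribonucleotides, and it is the step that limits their supply. Its large subunit is encoded by Rrm1. Its small subunit is encoded either by Rrm2, which is made in dividing cells around S phase, or by Rrm2b, a p53-induced form that also serves resting cells. The pyrimidine ring itself is made by Cad, Dhodh and Umps, in that order. Thymidine nucleotides then come from Tyms, which methylates dUMP, with Dut supplying dUMP from dUTP and keeping uracil out of DNA, or from salvage of thymidine by Tk1. Proliferating ECs need these enzymes when vessels sprout.

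Total counts lay between 120192466 and 146881356 per library, and the 9 genes together took between 22865 and 34229 of them. Defining endothelial genes were scarce. Pecam1, which encodes CD31, had 0.128 ± 0.0378 TMM-normalized CPM (counts scaled to a common library size, with edgeR's TMM factors; SD, n = 3) in normal glucose and 0.103 ± 0.0359 in high glucose, and Tie1 had no counts in any high glucose library. The 12 endothelial markers summed to between 73.8 and 77.0 CPM in normal glucose and between 57.0 and 57.6 CPM in high glucose, most of it Flt1, whereas 12 fibroblast markers summed to between 39314 and 42530 CPM and between 71949 and 76823 CPM. Of the fibroblast markers, 10 were higher and 1 lower in high glucose. Of the 9 endothelial markers that could be tested, 3 were lower and 2 higher. Whether these marker changes reflect cell makeup or expression per cell was not tested, nor was their part in the results on the 9 enzymes. Macrophage markers (3 lower and 1 higher of 5 tested) summed to between 17.5 and 19.8 CPM in normal glucose and between 26.9 and 27.8 CPM in high glucose. The higher sum came from Cd14 alone, which went from 9.47 ± 0.555 to 21.1 ± 0.0449 CPM. Csf1r, Cd68 and Mrc1 were lower, and Lyz2 was not called. Keratinocyte markers (1 higher of 4 tested) summed to between 4.23 and 5.13 CPM and between 4.70 and 5.13 CPM. The higher one, Krt5, had 2 counts in each normal glucose library and 23, 12 and 14 in high glucose. Krt14, not tested, had 2, 0 and 0 counts against 35, 9 and 31. The macrophage markers Ptprc, Adgre1 and Itgam and the keratinocyte markers Krt1 and Cdh1 had 0 counts in all high glucose libraries.

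RefSeq promoter windows on GRCm38.p6, from 250 bases before the transcription start to 50 bases from it, were matched for 7 of the 9 genes. The stretches just before the start are shown only for genes with enough bases there outside annotated exons. These are Rrm1 and Rrm2, which fell, Tyms, which did not pass the test, and Cad, which rose. Tk1, Dut and Umps, which also fell, had too few such bases. The stretches are read in the direction of the gene and cover bases outside annotated exons. Capitals mark the matches to a CCAAT box (CCAAT), an E2F core, an E-box (CACGTG) or a GC box (GGGCGG), on either strand. The E2F core was searched as TTCCCGC, in a variant form as TTGGCGC, in another as TTGCCGC and in a last one as TTCGCGC, and a cell cycle homology region (TTTGAA) was searched too. An E2F core and a GC box can share bases.
Rrm1, chr7:102441575-102441694, plus strand: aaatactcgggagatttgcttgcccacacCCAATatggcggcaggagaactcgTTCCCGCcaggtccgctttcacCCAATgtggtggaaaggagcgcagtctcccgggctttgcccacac
Rrm2, chr12:24708134-24708240, plus strand: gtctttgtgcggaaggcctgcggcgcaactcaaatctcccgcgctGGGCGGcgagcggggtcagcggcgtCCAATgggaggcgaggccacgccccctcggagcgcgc
Tyms, chr5:30073626-30073745, minus strand: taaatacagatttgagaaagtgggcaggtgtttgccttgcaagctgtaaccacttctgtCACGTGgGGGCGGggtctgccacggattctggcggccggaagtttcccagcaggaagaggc
Cad, chr5:31054660-31054779, plus strand: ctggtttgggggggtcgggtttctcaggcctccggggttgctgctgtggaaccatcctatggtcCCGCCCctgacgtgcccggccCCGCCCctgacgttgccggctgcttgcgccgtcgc

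A CCAAT box was found in the full windows of Rrm1 and Rrm2, or 2 of the 7 genes, against 37.4% of all 32851 windows of the same length. An E2F core was found in 3 of the 7, at -67 in Rrm1, at -235 in Rrm2 and at 37 in Cad, counted in bases from the start (the latter pair outside the stretches shown), against 9.57% of all windows. GC boxes were found in 6 of the 7, all but Rrm1, against 35.7%. The E-box was found in Tyms and the cell cycle homology region in Umps, 1 of the 7 each, against 7.15% and 17.9% of all windows. These are matches of letters, and binding was not measured in these samples.

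The 9 enzymes did not move as a block. In high glucose, 5 of them were lower (Rrm2, Tk1, Rrm1, Dut and Umps), 1 was higher (Cad), and 3 did not pass the test (Tyms, Rrm2b and Dhodh), called by the quasi-likelihood test of edgeR with P values adjusted over all 19015 genes and a threshold of 0.05. Of all genes tested, 14.5% were called lower and 16.9% higher. The median log2 fold change of the 9 genes was -0.17, against 0.0062 over all genes tested. The normalized CPM of the groups did not overlap for 7 of the 9 genes, against 46.4% of all genes tested. In these bulk libraries, fewer cells that express an enzyme and less of its RNA per cell cannot be told apart. Scaling the libraries by their totals alone moved the median of all genes to -0.11 and raised the falls among all calls from 46.2% to 72.9% (56.5% with upper quartile scaling). With that scaling 6 enzymes were lower, Tyms included, and Cad did not pass.

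**Figure D1:**
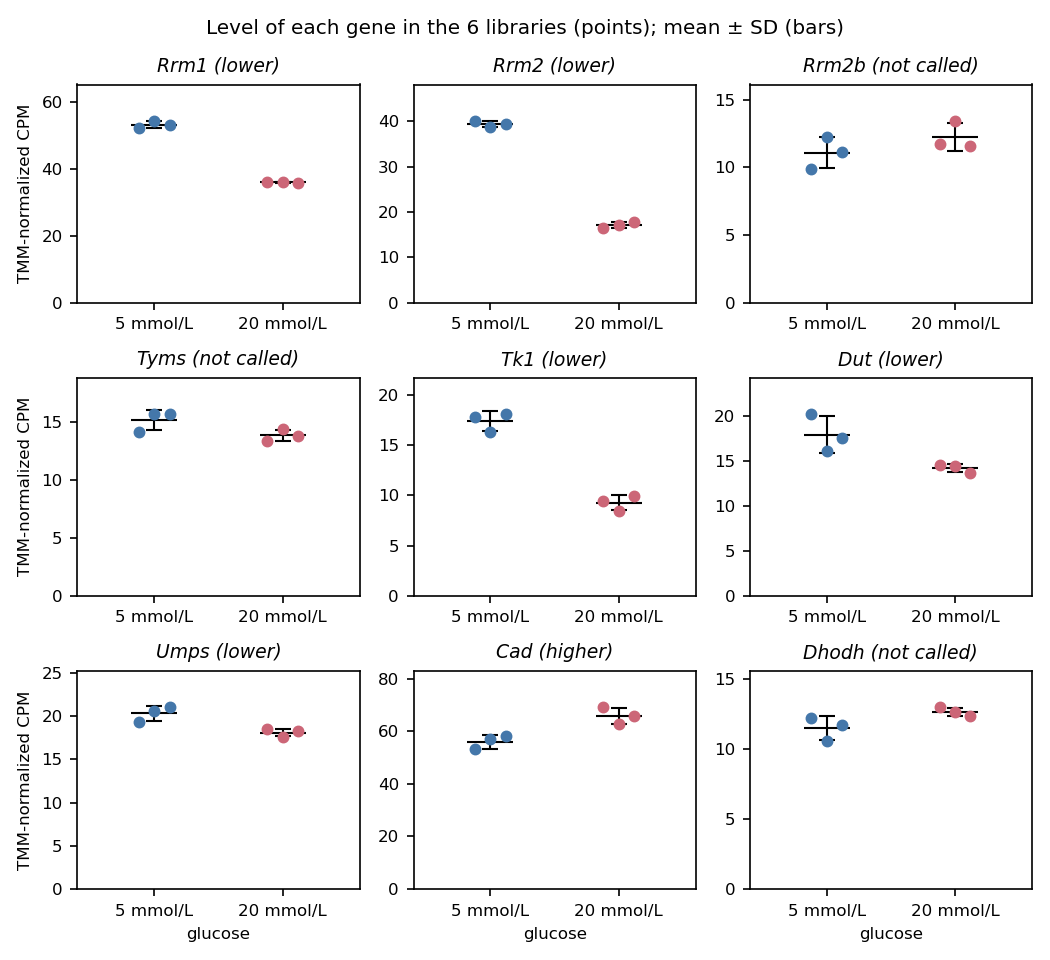
TMM-normalized CPM (y axis, from 0, a separate scale for each gene) of the 9 enzymes in normal (5 mmol/L, blue) and high (20 mmol/L, red) glucose. Each point is 1 library, and bars give the mean ± SD of 3 libraries. Rrm1, Rrm2 and Tk1 show wide gaps between the groups, while the points of Rrm2b and Tyms overlap.

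Both subunits of the S phase form of ribonucleotide reductase fell. Rrm2 (ENSMUSG00000020649, chromosome 12 of GRCm38, 24708241 to 24714146, plus strand) had 40.1, 38.7 and 39.3 CPM in normal glucose and 16.4, 17.1 and 17.7 CPM in high glucose. Every high glucose library was thus well under every normal glucose library, from between 1985 and 5485 counts. The log2 fold change was -1.21 (SE 0.0531, 95% interval -1.32 to -1.09, edgeR adjusted P = 1.4e-07), or a change of -56.7%. Among the 2757 genes that fell, 337 had a larger fall. Rrm1 (ENSMUSG00000030978, chromosome 7, 102441695 to 102469771, plus strand) had 52.4, 54.4 and 53.01 CPM in normal glucose and 36.1, 36.1 and 35.7 CPM in high glucose. The groups were far apart and the high glucose libraries nearly equal. The log2 fold change of Rrm1 was -0.57 (SE 0.0480, adjusted P = 1.2e-05 from the same edgeR test), a change of -32.5%.

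Rrm2b, the p53-induced small subunit, did not follow. Rrm2b (ENSMUSG00000022292, chromosome 15, 37923952 to 37961318, minus strand) had 9.90, 12.2 and 11.2 CPM in normal glucose and 11.7, 13.4 and 11.6 CPM in high glucose. The groups overlapped, and the difference of 0.14 on the log2 scale was not called (95% interval -0.06 to 0.35, adjusted P = 0.277 from edgeR). Its exons share 734 bases with the antisense gene Gm49085, which had at most 50 counts in any library against at least 1239 for Rrm2b. No source used here says that strand was used in counting. Of 15 other genes that p53 induces, 12 were lower and 1 higher in high glucose, with a median log2 fold change of -0.48. Cdkn1a, which encodes the CDK inhibitor p21, went from 546 ± 27.0 to 328 ± 7.63 CPM, and Sesn1, a stress sensor, was the 1 that was higher, with a log2 fold change of 0.49.

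The balance between the subunits can be read within each library, where the scaling of libraries cancels. Per kilobase of transcript, there were 8.42, 6.59 and 7.33 Rrm2 reads for each Rrm2b read in normal glucose, against 2.91, 2.64 and 3.18 in high glucose. Rrm2 thus still exceeded Rrm2b in every library, by a smaller margin in high glucose. The difference in the log2 ratio was -1.35 (exact permutation test, two-sided, P = 0.1, and 3 libraries against 3 cannot give less). Rrm2 also fell relative to its partner Rrm1, from a ratio per kilobase of 1.35 ± 0.05002 to 0.864 ± 0.0377 (SD, n = 3), a log2 difference of -0.64 (exact permutation test, P = 0.1). With Benjamini-Hochberg adjustment over the 4 ratios tested, each P value stayed at 0.1, so none can pass a threshold of 0.05 in this design. The size of each ratio depends on the transcript lengths used, and the log2 differences do not.

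**Figure D2:**
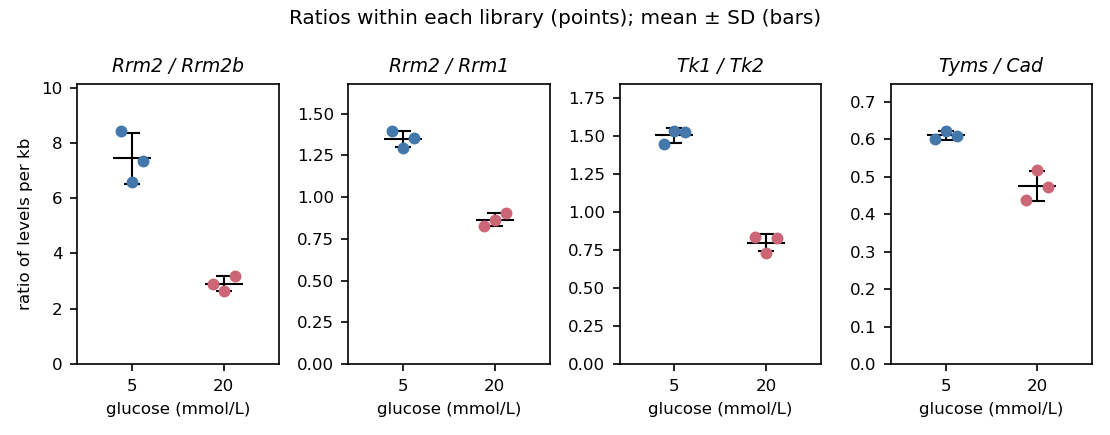
Ratio of the levels per kilobase of 2 genes within each library (y axis, from 0, a separate scale for each pair) against glucose (x axis, mmol/L). Points are libraries (blue normal, red high glucose) and bars the mean ± SD of 3. In all 4 pairs every high glucose point lies under every normal glucose point, with Rrm2 to Rrm2b going from 7.45 ± 0.925 to 2.91 ± 0.268.

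Among the enzymes of thymidine nucleotides, the salvage kinase fell most. Tk1 (ENSMUSG00000025574, chromosome 11, 117815526 to 117826092, minus strand) had 17.8, 16.2 and 18.1 CPM in normal glucose and 9.42, 8.42 and 9.88 CPM in high glucose. The groups did not overlap, and the log2 fold change was -0.91 (SE 0.0780, 95% interval -1.08 to -0.74, adjusted P = 1.3e-05 from edgeR), a change of -46.8%. Tk1 shares 83 exonic bases with Afmid on the opposite strand, which had between 486 and 614 counts and a difference of -0.12 on the log2 scale (not called, adjusted P = 0.378 from edgeR). Tk2, the mitochondrial thymidine kinase, stayed at 19.3 ± 1.45 and 19.3 ± 0.536 CPM (SD, n = 3). The ratio of Tk1 to Tk2 per kilobase went from 1.51 ± 0.0470 to 0.801 ± 0.0577, a log2 difference of -0.91 (two-sided exact permutation test, P = 0.1).

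Dut, the dUTPase, fell by less. Dut (ENSMUSG00000027203, chromosome 2, 125247190 to 125258608, plus strand) had 20.3, 16.1 and 17.6 CPM in normal glucose and 14.6, 14.4 and 13.7 CPM in high glucose. Normal glucose replicate 1 was the highest library, and the lowest normal glucose library was still above all of high glucose. The log2 fold change was -0.34 (SE 0.0833, adjusted P = 0.0117 from edgeR), a change of -20.8%.

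Tyms, the thymidylate synthase and the only de novo source of thymidylate, was not called. Tyms (ENSMUSG00000025747, chromosome 5, 30058202 to 30073617, minus strand) had 14.1, 15.7 and 15.6 CPM in normal glucose and 13.4, 14.4 and 13.7 CPM in high glucose. The highest high glucose library lay above normal glucose replicate 1. The log2 fold change was -0.13 (95% interval -0.28 to 0.016, adjusted P = 0.162 from edgeR), an interval whose lower end stops short of the -0.91 of Tk1. Without normal glucose replicate 1 the log2 fold change was -0.20 and passed (adjusted P = 0.0270 from edgeR).

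The 3 enzymes of pyrimidine ring synthesis split. Cad, the trifunctional protein that starts the pathway, was the 1 gene that rose. Cad (ENSMUSG00000013629, chromosome 5, 31054780 to 31078479, plus strand) had 53.1, 56.8 and 58.0 CPM in normal glucose and 69.1, 62.6 and 65.6 CPM in high glucose. The groups did not overlap, and the log2 fold change was 0.23 (SE 0.0581, 95% interval 0.10 to 0.36, adjusted P = 0.0121 from edgeR), a change of 17.5%. The call was lost without high glucose replicate 1 (log2 fold change 0.18, adjusted P = 0.0973) and without high glucose replicate 3 (0.22, adjusted P = 0.0693 from edgeR).

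Dhodh, the mitochondrial enzyme of the pathway, was not called. Dhodh (ENSMUSG00000031730, chromosome 8, 109591343 to 109608673, minus strand) had 12.2, 10.6 and 11.8 CPM in normal glucose and 13.0, 12.6 and 12.4 CPM in high glucose. The groups did not overlap, but the gap between them was smaller than the spread within normal glucose, and the log2 fold change was 0.14 (95% interval -0.02 to 0.30, adjusted P = 0.171 from edgeR). Umps, which closes the pathway by making UMP, was just past the threshold in the other direction. Umps (ENSMUSG00000022814, chromosome 16, 33954782 to 33967038, minus strand) had 19.3, 20.6 and 21.0 CPM in normal glucose and 18.5, 17.6 and 18.2 CPM in high glucose. The groups did not overlap. The log2 fold change was -0.17 (95% interval -0.29 to -0.04, adjusted P = 0.0490 from edgeR), a change of -10.9%. It passed in 1 of the 6 fits that left out a library, the one without normal glucose replicate 1, and the other 5 gave values between -0.20 and -0.15. The antisense gene Gm15829, which shares 213 exonic bases with Umps, had at most 7 counts in any library. The ratio of Tyms to Cad per kilobase was 0.610 ± 0.0109 in normal glucose and 0.475 ± 0.0405 in high glucose, without overlap, a log2 difference of -0.36 (two-sided exact permutation test, P = 0.1).

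**Figure D3:**
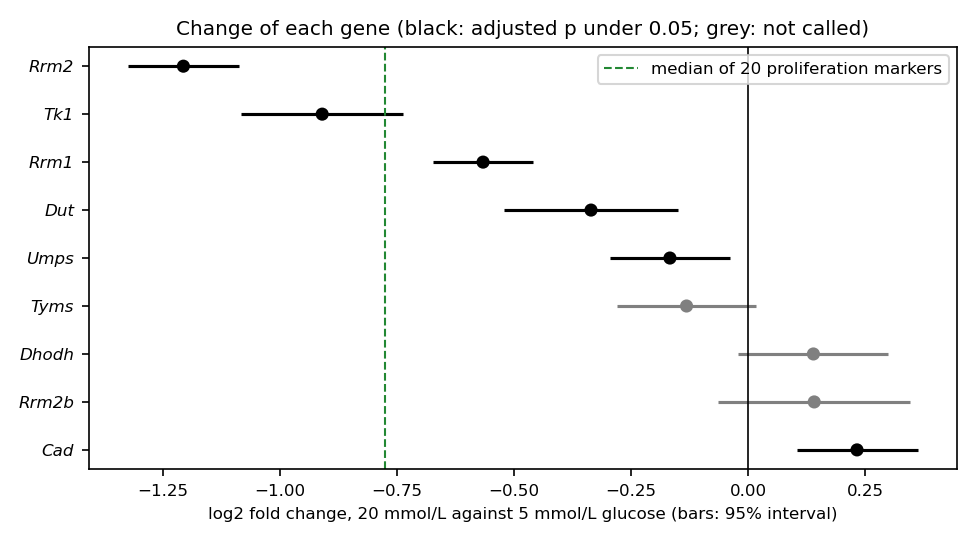
Log2 fold change of each enzyme in high against normal glucose (x axis) with its 95% interval (bars), ordered from the largest fall to the largest rise. Black genes passed an adjusted P value of 0.05 and grey genes did not, and the dashed line is the median of the 20 proliferation markers, -0.78. Rrm2 and Tk1 lie to the left of that line and the other 7 genes to its right.

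Levels per kilobase of transcript put the enzymes in a different order in the 2 media. In normal glucose Rrm2 stood first at 17.95 ± 0.323 CPM per kilobase (SD, n = 3), followed by Rrm1 at 13.3 ± 0.260, Tk1 at 12.1 ± 0.684, Dut at 9.22 ± 1.08 and Cad at 7.84 ± 0.360. Umps (5.83 ± 0.254), Dhodh (5.64 ± 0.415), Tyms (4.78 ± 0.281) and Rrm2b (2.43 ± 0.254) followed. The gaps between Dut and Cad and between Umps and Dhodh were smaller than the sum of their SDs. In high glucose Cad stood first at 9.21 ± 0.450 CPM per kilobase, followed by Rrm1 at 8.998 ± 0.0573, Rrm2 at 7.78 ± 0.293, Dut at 7.31 ± 0.244, Tk1 at 6.42 ± 0.519 and Dhodh at 6.21 ± 0.146. The gaps from Cad to Rrm1, from Rrm2 to Dut and from Tk1 to Dhodh were smaller than the sum of their SDs. Umps, Tyms and Rrm2b came last, at 5.20 ± 0.128, 4.37 ± 0.160 and 2.68 ± 0.227. These levels divide by the length of the principal transcript in GENCODE. Dividing by all annotated exons merged kept Rrm2 first and Rrm2b last in normal glucose but moved Rrm1 from rank 2 to rank 5, Tk1 from 3 to 6, Dut from 4 to 2 and Cad from 5 to 3. Tk1 then stood at 3.34 and Dhodh at 1.82 CPM per kilobase in normal glucose, so the order between genes depends on the length chosen.

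As shares of the summed level of the 9 enzymes, Rrm2 made up 22.9%, 22.8% and 22.4% in normal glucose, against 12.7%, 13.5% and 13.8% in high glucose. Cad went the other way, with 9.33%, 10.3% and 10.1% in normal glucose, against 16.5%, 15.2% and 15.8% in high glucose. Tk1 went from 15.2% ± 0.597 to 11.0% ± 0.816, and Rrm1 from 16.9% ± 0.622 to 15.5% ± 0.184 (SD, n = 3). The shares of Dhodh (7.13% ± 0.413 to 10.7% ± 0.218), Umps (7.38% ± 0.368 to 8.93% ± 0.134), Tyms (6.05% ± 0.411 to 7.51% ± 0.348) and Rrm2b (3.08% ± 0.368 to 4.62% ± 0.433) were higher in high glucose. The share of Dut was 11.7% ± 1.23 in normal glucose and 12.6% ± 0.436 in high glucose. Shares sum to the same total in every library, so they are not independent of each other. The mean shares of Umps, Tyms and Dut were higher in high glucose although their mean levels per kilobase were lower. With merged exon lengths the share of Tk1 went from 6.96% ± 0.285 to 4.94% ± 0.370, that of Rrm1 from 10.1% ± 0.355 to 9.08% ± 0.105 and that of Rrm2 from 29.6% ± 0.318 to 17.1% ± 0.752, each in the same direction as with principal transcripts.

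The markers of proliferation all fell, unlike the 9 enzymes. All 20 of the markers listed, replication and mitosis genes such as Mki67, Pcna and Ccnb1, were lower in high glucose by edgeR's test, with a median log2 fold change of -0.78 and a range from -1.33 (Bub1, a mitotic checkpoint kinase) to -0.26 (Pcna, the replication clamp). Their summed level lay between 440 and 449 CPM in normal glucose and between 278 and 282 CPM in high glucose. Of these 20, 2 fell by more than Rrm2, 8 by more than Tk1, 14 by more than Rrm1 and 18 by more than Dut, whereas all 20 fell by more than Umps and Tyms. The part of a lower share of dividing cells in the changes of the 9 enzymes was not tested. Over the 6 libraries, the 5 genes whose log2 CPM correlated most with that of Rrm2, among 10011 genes with a mean log2 CPM of at least 3, were Pdpn, Irgm1, Tpx2, Ccl2 and Serpine2, all with Pearson's r of at least 0.99912. The 6 points form 2 groups of 3 libraries, and such a value shares the gap between them. Rrm1 and Tk1 had an r of 0.9943 and 0.9860 with Rrm2, and Tyms one of 0.7383.

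The other genes of nucleotide metabolism were taken from lists of the pathway. With TMM scaling, their counts stand against 14.5% of all genes tested called lower and 16.9% called higher. Of 15 further genes of dNTP supply, 6 were lower and 1 higher in high glucose, with a median log2 fold change of -0.21. Scaling by library totals alone called 11 lower, left the 1 rise (Gsr, glutathione reductase) uncalled and gave a median of -0.32. Cmpk2, a mitochondrial nucleotide kinase, and Nme1, a nucleoside diphosphate kinase, had log2 fold changes of -0.78 and -0.55, and Nme1 shares 418 exonic bases with Gm20390 on its own strand. Of the 13 genes of the folate cycle that serves thymidylate synthesis, a list that also holds Tyms, 5 were lower and 1 higher (6 and 1 with scaling by library totals, with the median going from 0.023 to -0.09). Of the mitochondrial enzymes, Mthfd1l (-0.60), Mthfd2 (-0.42) and Shmt2 (-0.42) were lower, whereas Mthfd2l was not called (0.04, adjusted P = 0.733 from edgeR). Cytosolic Shmt1 was lower too (-0.48), while the folate carrier Slc19a1 was higher (0.31). Shmt1 and Shmt2 share 184 and 32 exonic bases with Smcr8 and Ndufa4l2 on the opposite strand.

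Salvage genes were divided, with 5 of 15 lower, 3 higher and a median log2 fold change of 0.09. Dck, the deoxycytidine kinase, went from 7.22 ± 0.335 to 4.04 ± 0.190 CPM (log2 fold change -0.84, adjusted P = 3.7e-05 from edgeR). Upp1, a uridine phosphorylase, had the lowest value of the list, from 2.67 ± 0.129 to 1.09 ± 0.159 CPM (-1.29), and Adk, the adenosine kinase, had a log2 fold change of -0.41. The mitochondrial deoxyguanosine kinase Dguok had a value of 0.09 that did not pass (adjusted P = 0.225 from edgeR). The 3 that were higher, Cda, Pnp and Uck2, had values between 0.23 and 0.32, and none of them passed when libraries were scaled by their totals alone, which also moved the median of the list to -0.02. Pnp shares 718 exonic bases with Gm49342 on its own strand.

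Among genes that break dNTPs down or carry nucleosides, the calls with TMM scaling were all higher in high glucose, against 16.9% of all genes tested. Of 12 tested genes of breakdown and pool cleaning, 4 were higher and the other 8 did not pass, with a median log2 fold change of 0.011. Scaling by library totals alone turned the median to -0.10 and called 2 higher (Samhd1 and Dpyd) and 3 lower. Samhd1, the dNTP triphosphohydrolase that opposes ribonucleotide reductase in resting cells, went from 51.6 ± 0.758 to 67.1 ± 0.508 CPM (SD, n = 3; log2 fold change 0.38, adjusted P = 1.7e-04 from edgeR). Dpyd, which starts the breakdown of uracil and thymine, went from 4.60 ± 0.656 to 8.82 ± 0.888 CPM (0.94, adjusted P = 1.9e-04). Nt5e and Nt5c2, nucleotidases, had values of 0.22 each, and Dctpp1, a dCTP pyrophosphatase, had one of -0.03. Of 4 tested nucleoside transporters 2 were higher, and Slc29a1, the equilibrative transporter of the cell surface, went from 30.1 ± 0.377 to 43.3 ± 1.01 CPM (0.53, adjusted P = 2.3e-05), while the log2 value of Slc29a2, also 0.53, did not pass with scaling by library totals. Slc29a1 shares 275 exonic bases with the antisense gene Gm17080, and Nt5c2 shares 456 with Ina on the opposite strand.

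Downstream of the pyrimidine pathway, Ctps, which turns UTP into CTP, was higher, from 206 ± 6.12 to 257 ± 10.9 CPM (log2 fold change 0.32, adjusted P = 0.00111 from edgeR), and Ctps2, its paralog, was not called (0.08, or -0.04 with scaling by library totals). Purine synthesis genes had a median log2 fold change of -0.025 over 16 genes, of which 5 were lower and the other 11 did not pass. With scaling by library totals alone 7 were lower and the median was -0.14. The largest of these falls were those of Adssl1 (-0.44), Ak1 (-0.31) and Paics (-0.20), and Paics shares 272 exonic bases with Ppat on the opposite strand.

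**Figure D4:**
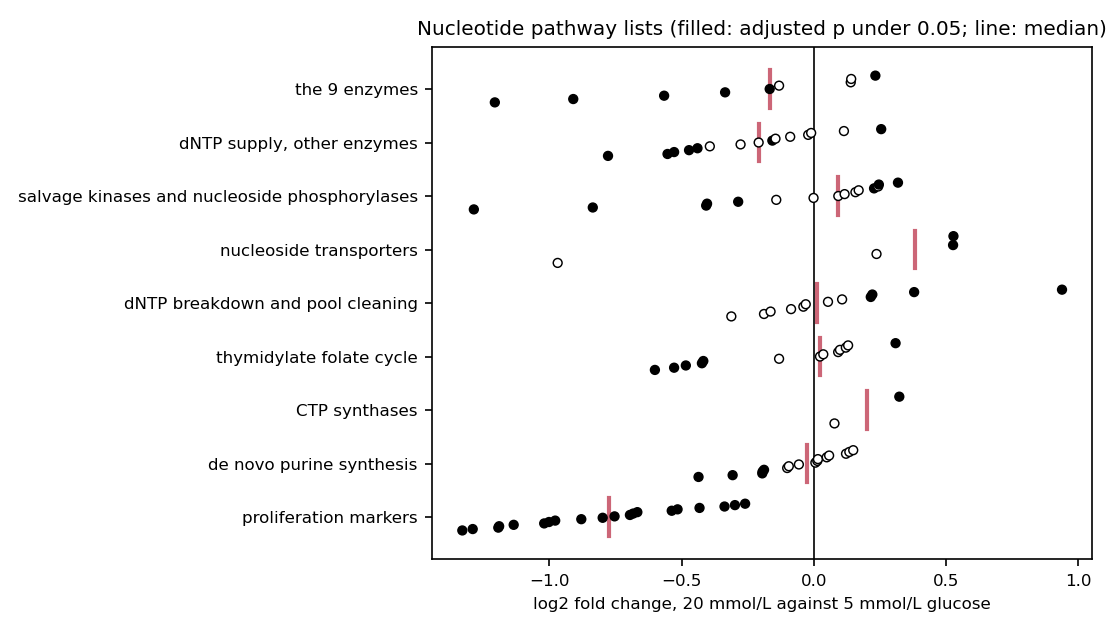
Log2 fold change in high against normal glucose (x axis) of every tested gene of 9 lists (y axis), with 1 point per gene. Filled points passed an adjusted P value of 0.05, open points did not, and red lines mark list medians. All 20 proliferation markers are filled and left of 0, while the called genes of breakdown, transport and CTP synthesis are right of 0 with TMM scaling.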

How the data were processed

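Bulk RNA-sequencing was analyzed for 6 cultures, grouped by their labels. The deposited values are whole-number counts per gene without normalization, and the authors' processing notes name Trimmomatic, HISAT2, StringTie, edgeR and the build GRCm38 (mm10). Tool versions, annotation release and strand setting are not given in the sources used here. The paper's text names a QIAGEN kit and HiSeq reads of 75 bases, the labels TRIzol and DNBSeq.

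Analysis used edgeR 4.0.16 under R 4.3.3. Low genes were removed by filterByExpr with a count of at least 10 and a total of at least 15, followed by TMM scaling and the quasi-likelihood test of high against normal glucose, with Benjamini-Hochberg adjustment over all genes. SEs came from the test statistic. On counts simulated for this comparison, 68% of 50 genes changed 1.5-fold were called and 89.4% of 47 changed 2-fold. Only 18% of 50 were called in the smallest class simulated, with 0.0108% of 18580 unchanged genes. The change in that class was larger than those of Cad, Umps, Tyms, Rrm2b and Dhodh. At most 50 genes per class were changed there, whereas 2757 genes were called lower and 3212 higher in these data. The Benjamini-Hochberg adjustment was thus stricter in the simulation, and its shares do not give the power for those enzymes. Symbols matched 55141 identifiers. Positions, exons and transcript lengths came from GENCODE M21. Exact 75-base stretches shared with other genes' transcripts made up at most 7.75% of any enzyme's (Rrm2b), and the processed pseudogenes Gm48445, Gm8616, Gm6091, Gm13722 and Tyms-ps had at most 2 counts. Intervals cover the spread between libraries. A floor of 3 counts, set by hand and not measured, marked low counts, and values at or under it are imprecise. It equals between 0.0204 and 0.0250 CPM by library totals, without TMM factors.

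Replicates differed by more than sampling noise (chi-square per degree of freedom at least 9.76). Named genes were the 9 enzymes, the 3 called genes with the largest changes in each pathway list, genes paralogous or opposed to an enzyme and the 5 genes correlating most with Rrm2. Mthfd2, Shmt2, Slc19a1, Cda, Pnp, Uck2, Nt5c2 and the marker, p53-induced and overlapping genes named were chosen after their values were seen. A gene of the pathway lists is counted in them but is not reported here by name. The enzymes and lists were chosen with earlier results of these data known. Alternatives were DESeq2 1.42.0, other scalings, filters, thresholds, robust fitting, halved counts, the replicate block and leaving out each library. Merged exon length, for levels and shares, was added after seeing the data.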

Additional observations from a re-analysis of the deposited data

How the results depend on the processing

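Each enzyme kept the direction of its log2 fold change in all 17 alternatives. Rrm2, Rrm1, Tk1 and Dut kept an adjusted p under 0.05 in every one. Their log2 fold changes ran from -1.32 to -1.20, -0.68 to -0.56, -1.02 to -0.86 and -0.45 to -0.26, in that order. The stricter thresholds given below reuse the main fit, so neither direction nor adjusted p could change there. For enzymes whose groups did not overlap, leaving out a library could hardly reverse the direction, which adds little support. Scaling by library totals alone called 4884 genes lower and 1819 higher, with 0 enzymes higher. The value of Cad was then 0.12 (edgeR, adjusted p = 0.147), and 0 enzymes were higher at an unadjusted p under 0.05. DESeq2 was a separate alternative that did not scale by library totals, and it called 1 enzyme higher (Cad, 0.22). Tightening the threshold to 0.01 left 1671 genes lower and 1946 higher, with 3 enzymes lower and 0 higher (1 at an unadjusted p under 0.05). A minimum absolute log2 fold change of 1 gave 542 and 395 genes, with 1 enzyme lower (Rrm2) and 0 higher. In both of these the stricter threshold itself reduced the counts, and for library totals the shift of the median accompanies them. Leaving out each library gave 2048 to 3065 lower and 1988 to 3149 higher genes, 4 to 6 enzymes lower and 0 to 1 higher (0 without high glucose replicate 1 or 3, where 1, Cad, had an unadjusted p under 0.05), and the higher genes were fewest without high glucose replicate 3 (1988) and replicate 1 (2010). The cause was not tested. With no filter on low counts the value of Umps was -0.19 (edgeR, adjusted p = 0.0558).

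Replicate numbers are shared by both groups, but nothing in the sources used here says that they pair cultures, and deviations of same-numbered libraries correlated at -0.025, 0.0038 and 0.013, with 2 of 6 libraries correlating best with their own number. The replicate block gave 2418 lower and 2909 higher genes, and 4 enzymes lower and 1 higher (Umps -0.17, adjusted p = 0.0889 from edgeR). The 4 ratios kept their direction in all 8 alternatives each, which adds no support. The groups did not overlap, so leaving out a library or using the replicate block could not reverse a ratio. Adding 1 to each count barely changed counts of this size.

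The lowest enzyme count was 979 (Tk1), and 3 libraries a group limit the changes that can be called.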
